A study of Homo sapiens with 6 samples.

Results

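The 9 genes MPC1, MPC2, PDHA1, PC, PCK2, CS, IDH2, OGDH and MDH2 encode mitochondrial proteins that take up pyruvate, convert it and run steps of the citrate cycle. They were taken by symbol from a table of 19571 genes, and all 9 were found and passed the filter on low values. The libraries came from LNCaP, a human prostate cancer cell line that carries an androgen receptor. The 3 KDM4B-labelled libraries (replicates 1, 2 and 4) came from cells that stably carried Flag-tagged wild-type KDM4B, a histone demethylase. The 3 vector control libraries (replicates 1, 2 and 3), called vector controls here, came from cells with the plenti6 control plasmid. Both cell populations were grown in RPMI with 10% FBS and moved to RPMI with 10% CFBS, an abbreviation the labels do not spell out, for 3 days before harvest. The labels do not say whether either line is 1 clone or which promoter drives the construct, and replicates are not said to be separate cultures. The p-values therefore speak only of the scatter of these 6 samples, and that scatter may be technical.

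Pyruvate made in the cytosol crosses the inner mitochondrial membrane through a carrier built from MPC1 and MPC2. Inside, the pyruvate dehydrogenase complex turns it into acetyl-CoA, while pyruvate carboxylase (PC) turns it into oxaloacetate. Citrate synthase joins these products, and prostate luminal cells are known for secreting citrate rather than oxidising all of it. PCK2 runs in the other direction, from oxaloacetate to phosphoenolpyruvate.

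The KDM4B transcript itself measured 26.3, 27.2 and 25.8 FPKM in the KDM4B-labelled libraries, against 24.7, 25.2 and 25.3 FPKM in the vector controls. FPKM are fragments per kilobase of transcript, scaled to the mapped fragments of the library, so they can be compared between genes. The KDM4B log2 fold change of 0.07 missed the threshold (limma, adjusted p = 0.113), and 0.31 after the scaling described next passed it (limma, adjusted p = 1.93e-05), so every direction below rests on the label. Ribosomal RNA genes took between 8.14% and 10.5% of the FPKM sum in the KDM4B-labelled libraries and between 0.14% and 0.47% in the vector controls. Log2 fold changes of FPKM are given both as deposited and after median-of-ratios scaling, which put the median over all tested genes at a log2 fold change of 0.00, against -0.22 as deposited. The titles of the KDM4B-labelled libraries carry a code that the vector titles lack, so a batch and the group cannot be told apart. All 9 LNCaP and luminal markers averaged at least 1 FPKM, and they summed to between 1716 and 1783 FPKM in the KDM4B-labelled libraries and to between 4160 and 4337 FPKM in the vector controls. Of the other markers, 1 of 3 basal, 4 of 4 immune, 2 of 3 endothelial and 3 of 4 stromal ones were among the genes measured. Summed separately for each cell type, those basal, immune and endothelial markers reached at most 2.19 FPKM in the KDM4B-labelled libraries and 2.39 FPKM in the vector controls. Those stromal ones summed to at most 3.43 FPKM in the KDM4B-labelled libraries and 2.54 FPKM in the vector controls. The immune and stromal sums came mostly from CD68 and COL1A1. The part of these shifts in the results on the 9 genes was not tested.

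The 9 genes split into a pair that was far lower in the KDM4B-labelled libraries, PCK2 and MPC2, and 7 whose group means differed by at most 1.31-fold on either scale. As deposited, 3 of the 9 genes were called lower (PCK2, MPC2 and PC), 2 were called higher (CS and MDH2) and 4 were not called, where a call is a limma p-value below 0.05 after Benjamini-Hochberg adjustment over all 12148 genes tested. On the same scale 60.3% of all tested genes were called lower and 13.4% higher. After scaling, PCK2 and MPC2 were still called lower and the other 7 were all called higher, PC among them, so PC passed the threshold in opposite directions on the 2 scales. The background after scaling was 33.9% called lower and 34.1% higher. Scaling to the FPKM sum without ribosomal RNA gave the same 2 and 7 calls, against 35.0% and 32.9% of all tested genes. Among all tested genes 3.42% were at least 2-fold lower as deposited and 2.01% after scaling, and PCK2 and MPC2 belonged to these on both scales. The median log2 fold change of the 9 genes was -0.08 as deposited and 0.16 after scaling. In bulk RNA, fewer cells that hold a transcript and less of it per cell cannot be told apart.

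**Figure D1:**
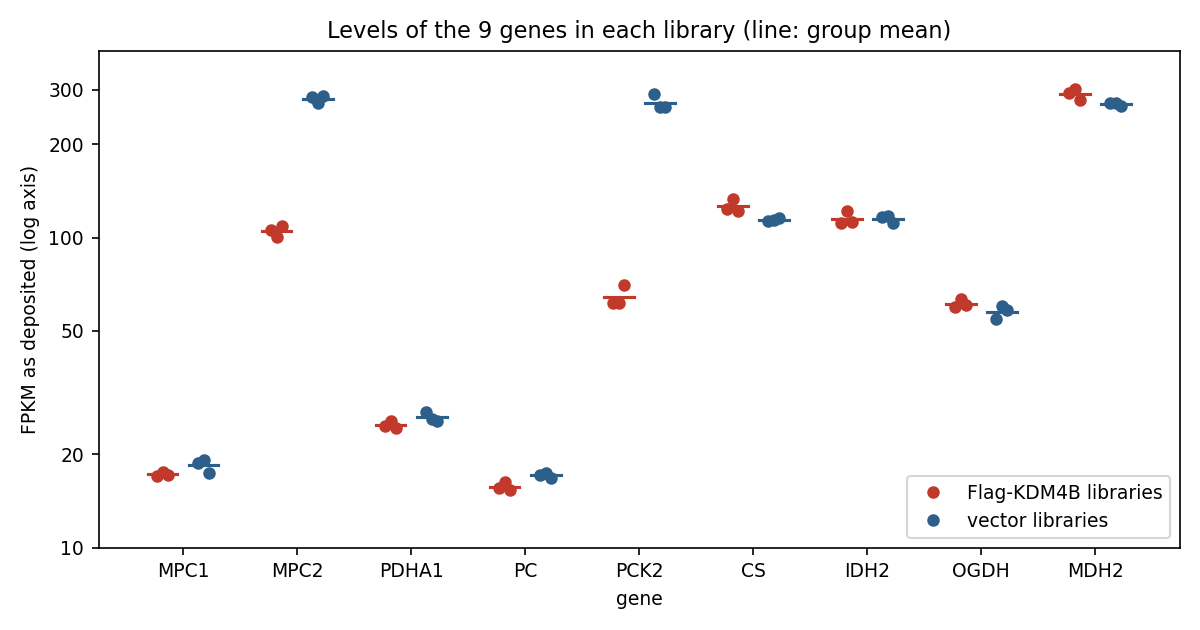
FPKM as deposited (log axis) of each of the 9 genes in the 3 KDM4B-labelled libraries (red, left of each pair) and the 3 vector controls (blue), with lines at the group means. MPC2 and PCK2 stand apart, with the KDM4B-labelled libraries at or below 109 FPKM for MPC2 and 70.4 FPKM for PCK2 and every vector control above 262 FPKM for both.

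PCK2, the mitochondrial phosphoenolpyruvate carboxykinase (gene 5106, chromosome 14), showed the widest difference of the 9. It measured 61.7, 61.3 and 70.4 FPKM in the KDM4B-labelled libraries, against 290, 264 and 263 FPKM in the vector controls. Every KDM4B-labelled library was far below every vector control, with replicate 4 the highest of its group and vector replicate 1 the highest of the other. The means were 64.5 ± 5.10 FPKM in the KDM4B-labelled libraries and 272 ± 15.4 FPKM in the vector controls (SD, n = 3 each), so the level stood at 23.7% of the vector mean. In the deposited FPKM, PCK2 fell by 2.06 on the log2 scale (SE 0.056; limma, adjusted p = 1.17e-10) and by 1.82 after scaling (SE 0.060; limma, adjusted p = 3.31e-09). Only 32 of the 12148 tested genes had a lower log2 fold change as deposited. Its cytosolic counterpart PCK1 was at or below 0.03 FPKM in every library. NRL, which overlaps PCK2 in the annotation, averaged 0.92 ± 0.24 FPKM in the KDM4B-labelled libraries and 1.20 ± 0.10 FPKM in the vector controls (SD, n = 3 each).

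MPC2, a subunit of the mitochondrial pyruvate carrier (gene 25874, chromosome 1), was the other gene of the pair. It measured 106, 100.2 and 109 FPKM in the KDM4B-labelled libraries, against 283, 271 and 286 FPKM in the vector controls. No value of one group came near the other, and replicates of a group lay close together. In the deposited FPKM, MPC2 fell by 1.41 on the log2 scale (SE 0.040; limma, adjusted p = 1.56e-10) and by 1.16 after scaling (SE 0.044; limma, adjusted p = 9.57e-09), and 142 tested genes had a lower log2 fold change as deposited. The RefSeq annotation places DCAF6 across part of MPC2, and no source used here says whether the counting used strand, so reads they share are uncertain. DCAF6 measured 48.7, 47.1 and 49.2 FPKM in the KDM4B-labelled libraries, against 55.8, 60.7 and 61.8 FPKM in the vector controls.

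MPC1, the partner subunit (gene 51660, chromosome 6), had a far smaller difference. It measured 17.0, 17.6 and 17.2 FPKM in the KDM4B-labelled libraries, against 18.7, 19.2 and 17.4 FPKM in the vector controls. The groups overlapped through vector replicate 3. The log2 fold change was -0.09 as deposited (SE 0.047; limma, adjusted p = 0.108) and, with the sign turned, 0.14 after scaling (SE 0.044; limma, adjusted p = 0.0139). The call after scaling was lost without vector replicate 3 (log2 fold change 0.10; limma, adjusted p = 0.0555), and without the same library the value as deposited of -0.13 passed the threshold. The MPC2 level was 6.21, 5.70 and 6.35 times that of MPC1 in the KDM4B-labelled libraries, against 15.1, 14.1 and 16.5 times in the vector controls.

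To place the pair in the genome, the 250 bases before their annotated starts are shown, from RefSeq on GRCh38.p14, each 5′ to 3′ on the strand of its gene. Capitals mark GGGCGG, the core of the GC box, and CCAAT, each on either strand; both were picked after the sequences were seen. PCK2 has 1 annotated start, whose window is chr14:24094061-24094310 on the plus strand. MPC2 has 3 entries on the minus strand, of which the inner one, chr1:167935997-167936246, and the outermost, chr1:167937073-167937322, are given.
PCK2: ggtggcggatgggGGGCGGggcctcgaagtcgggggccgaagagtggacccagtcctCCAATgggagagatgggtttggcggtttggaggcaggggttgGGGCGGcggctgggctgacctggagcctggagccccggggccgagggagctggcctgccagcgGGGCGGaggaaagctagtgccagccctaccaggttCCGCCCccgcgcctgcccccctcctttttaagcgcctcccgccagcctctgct
MPC2, inner start: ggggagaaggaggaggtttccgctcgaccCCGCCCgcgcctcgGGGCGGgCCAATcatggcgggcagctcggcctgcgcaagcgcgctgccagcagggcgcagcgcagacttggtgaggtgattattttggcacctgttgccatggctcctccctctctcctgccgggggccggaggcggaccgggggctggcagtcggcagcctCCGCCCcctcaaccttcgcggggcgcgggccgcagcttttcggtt
MPC2, outermost start: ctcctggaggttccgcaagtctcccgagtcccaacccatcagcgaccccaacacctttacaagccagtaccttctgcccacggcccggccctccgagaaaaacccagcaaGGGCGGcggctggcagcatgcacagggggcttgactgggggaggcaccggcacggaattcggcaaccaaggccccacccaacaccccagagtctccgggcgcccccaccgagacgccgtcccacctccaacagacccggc
The PCK2 window holds 4 GGGCGG and 1 CCAAT, the inner MPC2 window 3 and 1, and the outermost MPC2 window 1 and 0. Of 35116 promoters in the table, 42.6% hold GGGCGG and 32.0% hold CCAAT in the same span. None of these windows holds TGATGNAAN, the core of the composite element bound by C/EBP and ATF4 factors, which 3.13% of all promoters hold. AGAACA, a core of androgen receptor sites, and CACGTG, the E-box, were not found in them either and are held by 12.4% and 6.34% of promoters. Of the 9 genes, 8 had entries, 12 in all, and AGAACA occurred in 1 of these, a PC promoter. A match of letters is a description of the window and shows no binding.

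PDHA1, the catalytic alpha subunit of pyruvate dehydrogenase (gene 5160, chromosome X), measured 24.6, 25.7 and 24.3 FPKM in the KDM4B-labelled libraries, against 27.3, 26.1 and 25.7 FPKM in the vector controls. The groups overlapped, and only KDM4B replicate 2 reached into the vector range. Its log2 fold change was -0.08 as deposited (SE 0.043; limma, adjusted p = 0.111) and 0.16 after scaling (SE 0.038; limma, adjusted p = 0.00421). PC, which feeds oxaloacetate into the cycle (gene 5091, chromosome 11), measured 15.6, 16.3 and 15.4 FPKM in the KDM4B-labelled libraries, against 17.1, 17.5 and 16.8 FPKM in the vector controls. All 3 KDM4B-labelled libraries lay below all 3 vector controls, by a small margin. The log2 fold change was -0.12 as deposited (SE 0.043; limma, adjusted p = 0.0285) and 0.11 after scaling (SE 0.037; limma, adjusted p = 0.0193). Both calls rested on single libraries. The call on the deposited FPKM was lost when KDM4B replicate 1 or 4 or vector replicate 1 or 2 was left out (limma, adjusted p between 0.0599 and 0.0933), and the call after scaling when KDM4B replicate 1 or 2 or vector replicate 3 was (limma, adjusted p between 0.056 and 0.0649). LRFN4, which overlaps PC in the annotation, had a log2 fold change of 0.07 as deposited (limma, adjusted p = 0.307) and 0.29 after scaling (limma, adjusted p = 0.000469).

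CS, citrate synthase (gene 1431, chromosome 12), measured 124, 133 and 121 FPKM in the KDM4B-labelled libraries, against 113, 114 and 116 FPKM in the vector controls. Each KDM4B-labelled library was above each vector control. CS rose by 0.14 as deposited (SE 0.040; limma, adjusted p = 0.00737) and by 0.38 after scaling (SE 0.031; limma, adjusted p = 2.18e-06). MDH2, the malate dehydrogenase that closes the cycle by remaking oxaloacetate (gene 4191, chromosome 7), measured 291, 300.3 and 277 FPKM in the KDM4B-labelled libraries, against 271, 272 and 266 FPKM in the vector controls. The groups did not overlap, though KDM4B replicate 4 lay close to the highest vector control. MDH2 rose by 0.10 as deposited (SE 0.036; limma, adjusted p = 0.0233) and by 0.35 after scaling (SE 0.031; limma, adjusted p = 3.92e-06). The call on the deposited FPKM was lost when KDM4B replicate 1 or 2 or vector replicate 2 or 3 was left out (limma, adjusted p between 0.0507 and 0.0786).

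IDH2, the NADP-dependent isocitrate dehydrogenase of mitochondria (gene 3418, chromosome 15), measured 111, 122 and 112 FPKM in the KDM4B-labelled libraries, against 116, 117 and 111 FPKM in the vector controls. The vector range lay inside that of the KDM4B-labelled libraries. The log2 fold change was 0.00 as deposited (SE 0.042; limma, adjusted p = 0.979) and 0.24 after scaling (SE 0.034; limma, adjusted p = 0.000106). OGDH, the decarboxylating subunit of the 2-oxoglutarate dehydrogenase complex (gene 4967, chromosome 7), measured 59.7, 63.3 and 60.6 FPKM in the KDM4B-labelled libraries, against 54.7, 60.0 and 58.5 FPKM in the vector controls. The groups overlapped slightly, at KDM4B replicate 1 and vector replicate 2. The log2 fold change was 0.08 as deposited (SE 0.043; limma, adjusted p = 0.103) and 0.32 after scaling (SE 0.037; limma, adjusted p = 2.78e-05).

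Set against the median of all tested genes, CS, MDH2, OGDH and IDH2 stood 0.36, 0.32, 0.30 and 0.22 above it as deposited, and PDHA1, MPC1 and PC 0.14, 0.13 and 0.10 above it. MPC2 and PCK2 stood at -1.19 and -1.85 relative to that median. The 4 enzymes of the cycle thus lay higher in the distribution than the 3 genes of pyruvate entry with small differences; the difference between these groups was not tested. In the deposited FPKM, 5 of the 9 genes had groups that did not overlap, against 76.3% of all tested genes. After scaling they did not overlap for any of the 9, against 71.7% of all tested genes.

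**Figure D2:**
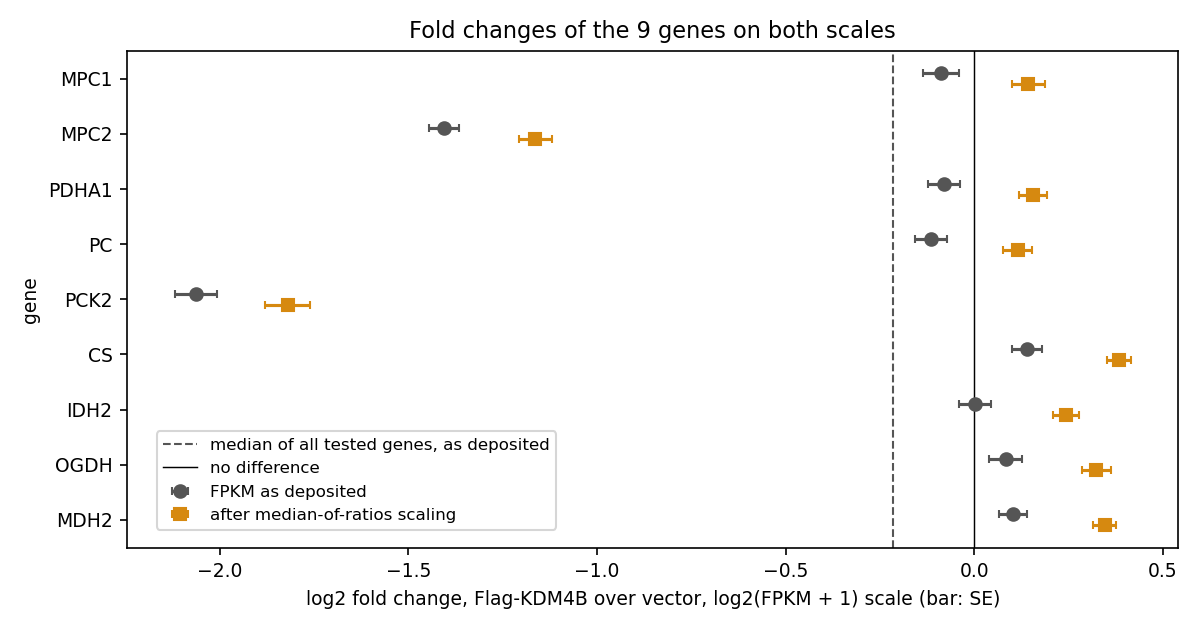
Log2 fold change of the 9 genes, KDM4B-labelled libraries over vector controls, on the log2(FPKM + 1) scale with standard errors, as deposited (grey circles) and after median-of-ratios scaling (orange squares). The dashed line marks the median of all tested genes as deposited, -0.22. MPC2 and PCK2 lie beyond -1 on both scales, while MPC1, PDHA1 and PC lie on opposite sides of 0 on the 2 scales.

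The order of the levels differed between the groups. In the KDM4B-labelled libraries, MDH2 was highest at a mean of 290 FPKM, followed by CS at 126 and IDH2 at 115, whose ranges overlapped, then MPC2 at 105. PCK2 at 64.5 and OGDH at 61.2 FPKM overlapped as well, and PDHA1 (24.9), MPC1 (17.3) and PC (15.7 FPKM) followed without overlap. In the vector controls MPC2 (280 FPKM), PCK2 (272) and MDH2 (270) shared the top with overlapping ranges, IDH2 and CS overlapped at 115 and 114 FPKM, and OGDH (57.7), PDHA1 (26.4) and the overlapping MPC1 (18.4) and PC (17.1 FPKM) closed the order. MPC2 and PCK2 together made up 20.6%, 19.2% and 22.2% of the FPKM sum of the 9 genes in the KDM4B-labelled libraries, against 48.1%, 46.1% and 47.3% in the vector controls. The other 7 genes summed to 644, 678 and 628 FPKM in the KDM4B-labelled libraries, against 618, 625 and 612 FPKM in the vector controls. Every sum of these 7 in the KDM4B-labelled libraries was above every vector sum, the nearest pair being KDM4B replicate 4 and vector replicate 2.

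Ratios of 2 genes within a library do not depend on how libraries are scaled, and 8 were compared. The PCK2 to PC ratio averaged 4.11 ± 0.42 in the KDM4B-labelled libraries and 15.9 ± 0.93 in the vector controls (SD, n = 3 each), a log2 difference of -1.96. MPC2 to MPC1 averaged 6.09 ± 0.34 in the KDM4B-labelled libraries and 15.2 ± 1.19 in the vector controls, a log2 difference of -1.32. IDH2 to IDH1, the mitochondrial over the cytosolic enzyme, averaged 0.69 ± 0.014 in the KDM4B-labelled libraries and 0.42 ± 0.024 in the vector controls, a log2 difference of 0.72. These 3 ratios did not overlap between the groups, and each had a two-sided exact permutation p of 0.1, the smallest that 3 against 3 libraries allow, and an adjusted p of 0.2 over the 8. PC to PDHA1, the branch point of pyruvate, averaged 0.63 in the KDM4B-labelled libraries and 0.65 in the vector controls. That ratio overlapped between the groups, as did MDH2 to MDH1, OGDH to IDH2 and PDHA1 to PDHB, with exact permutation p-values between 0.2 and 0.7.

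**Figure D3:**
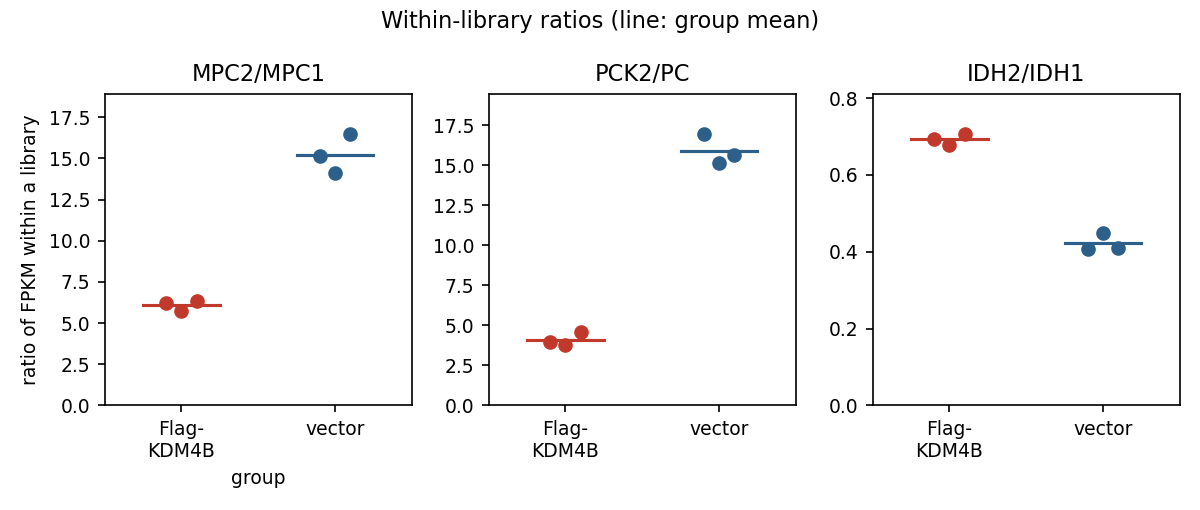
Ratio of the FPKM of 2 genes within each library for MPC2/MPC1, PCK2/PC and IDH2/IDH1, with the KDM4B-labelled libraries (red) left of the vector controls (blue) and lines at the group means. The axes start at 0. MPC2/MPC1 lies at or below 6.35 in the KDM4B-labelled libraries and at or above 14.1 in the vector controls, and PCK2/PC at or below 4.58 in the KDM4B-labelled libraries and at or above 15.1 in the vector controls.

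Read counts of splicing events gave a second reading of the levels. A skipped exon (SE) event counts reads on an exon and its junctions together with reads that skip the exon. The most-read SE event of each gene was tested with edgeR's quasi-likelihood test. The PCK2 event, on an exon of 246 bases, held 1320, 1246 and 1461 reads in the KDM4B-labelled libraries, against 5973, 5318 and 5425 reads in the vector controls (log2 fold change -1.83; edgeR, adjusted p = 1.19e-28). The MPC2 event, on an exon of 112 bases, held 2462, 2380 and 2701 reads in the KDM4B-labelled libraries, against 6863, 6276 and 6734 reads in the vector controls (log2 fold change -1.18; edgeR, adjusted p = 1.98e-23). The scaled FPKM gave -1.82 and -1.16 for the same genes. Of the 9 genes, 2 were called lower and 4 higher (CS, IDH2, MDH2 and OGDH) in these reads, against 22.3% and 22.4% of 8880 tested genes. MPC1, PDHA1 and PC, with log2 fold changes of 0.19, 0.20 and 0.18, were not called (edgeR, adjusted p = 0.122, 0.0645 and 0.263).

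The difference was present in every SE event of PCK2 and MPC2. All 6 SE events of PCK2 were lower, with log2 ratios of the mean counts between -2.07 and -2.02, not corrected for the depth of the libraries. All 3 SE events of MPC2 were lower too, between -1.40 and -1.31. Per summed SE count of the library, the ratios were -1.85 to -1.80 for PCK2 and -1.18 to -1.09 for MPC2. Events of a gene can share reads and are not independent of each other. By contrast, the 17 SE events of OGDH had log2 ratios of the mean counts between 0.01 and 0.28. Per summed SE count these were 0.22 to 0.50. An MPC1 event on an exon of 216 bases had a log2 ratio of the mean counts of -1.46, against -0.03 for the other MPC1 event. It held 11, 8 and 14 reads in the KDM4B-labelled libraries, against 41, 34 and 16 reads in the vector controls. That exon belongs to a transcript the authors assembled, its counts are low, and it was singled out after its values were seen. The other MPC1 event held 314, 318 and 287 reads in the KDM4B-labelled libraries, against 289, 351 and 299 reads in the vector controls.

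**Figure D4:**
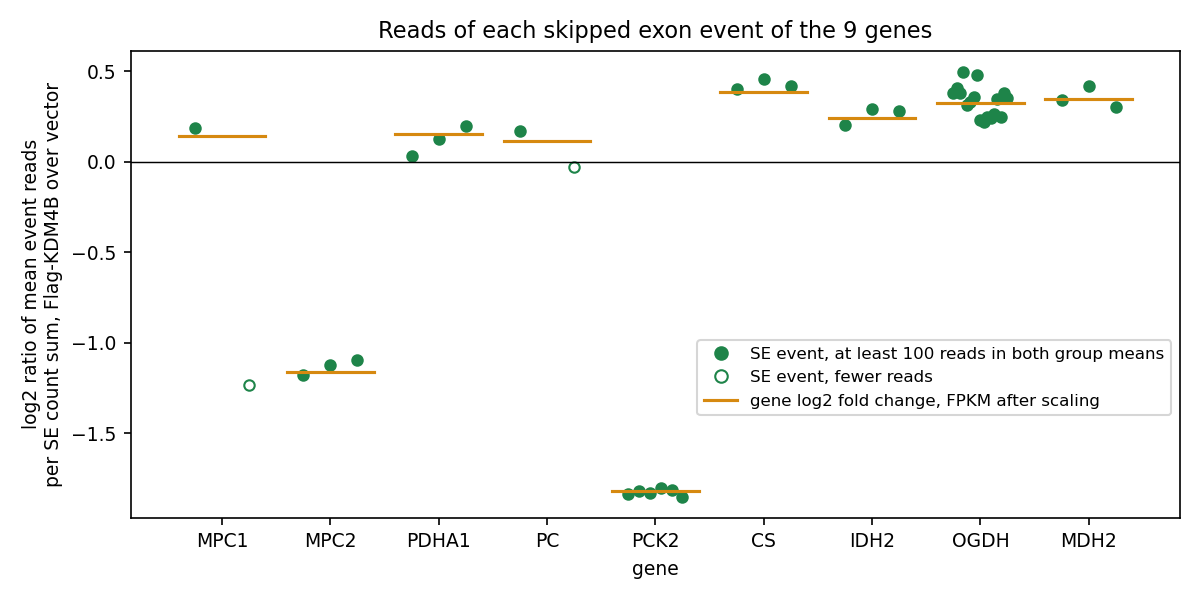
Log2 ratio of the mean reads of each skipped exon event, KDM4B-labelled libraries over vector controls, per summed SE count of the library, for each of the 9 genes. Filled points are events with at least 100 reads in both group means, open points have fewer, and orange lines give the scaled FPKM log2 fold change. The 6 PCK2 events lie between -1.85 and -1.80 and the 3 MPC2 events between -1.18 and -1.09, and the open MPC1 point at -1.23 is the low-count exon.

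No tested splice event of the 9 genes passed the threshold. Among the tested OGDH pairs, only that of 91 and 103 bases has different transcripts listed for its exons. In the other OGDH pairs no transcript is listed for the second form. Their shares compare reads on exons that a transcript can hold together, and do not measure a choice between them. OGDH has alternative exons of 91 and 103 bases, and the 91-base exon took 22.9%, 23.2% and 23.3% of their reads in the KDM4B-labelled libraries, against 19.0%, 22.3% and 21.4% in the vector controls. The groups did not overlap, and the log2 odds ratio of 0.18 was not called (edgeR, adjusted p = 0.80). A second OGDH pair, of 192 and 103 bases, had 67.4% ± 1.58 of reads on the first exon in the KDM4B-labelled libraries and 66.2% ± 3.64 in the vector controls (SD, n = 3 each; edgeR, adjusted p = 0.908). Another OGDH pair, of 180 and 129 bases, had 41.5% ± 1.25 in the KDM4B-labelled libraries and 41.9% ± 0.78 in the vector controls (SD, n = 3 each; edgeR, adjusted p = 0.972). Reads of the alternative 5′ splice site event of MPC2 came to 0.87% ± 0.59 of the summed SE reads of the gene in the KDM4B-labelled libraries and 0.87% ± 0.48 in the vector controls (SD, n = 3 each; edgeR, adjusted p = 0.991). These reads do not separate the long and short forms of the exon, so the test does not measure which site was used. Replicates of a group differed widely there, with 30, 56 and 13 reads in the KDM4B-labelled libraries, against 100, 126 and 34 reads in the vector controls, and the groups overlapped. In all, 0 of the 4 tested events were called by edgeR or by DESeq2, and 0 had an unadjusted p below 0.05 in edgeR. Among all tested events 1.63% of mutually exclusive exon pairs and 3.69% of alternative 5′ splice sites were called.

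Around the 9 genes, 68 other genes of pyruvate, citrate cycle, carrier and glutamate metabolism were listed, and 60 passed the filter. As deposited 9 of the 60 were called higher, 25 lower and 26 were not called, with a median log2 fold change of -0.07 against -0.22 over all tested genes. After scaling 33 were called higher and 15 lower, with a median of 0.16. Over all tested genes, 13.4% were called higher and 60.3% lower as deposited, and 34.1% and 33.9% after scaling. The counts of each list below are to be read beside these same shares. Genes are named below with their FPKM as deposited and with log2 fold changes on both scales, and those said to rise or fall were called in the same direction on both scales. Of the 60, 2 fell at least 2-fold as deposited and 0 after scaling, against 3.42% and 2.01% of all tested genes. None of the 60 was as low as PCK2 or MPC2 on either scale.

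Of the 4 other genes of the pyruvate dehydrogenase complex, 0 were called as deposited and all 4 were called higher after scaling. PDHB, the beta subunit, averaged 63.7 ± 1.98 FPKM in the KDM4B-labelled libraries and 65.7 ± 0.44 FPKM in the vector controls (SD, n = 3 each), a log2 fold change of -0.04 that turned to 0.20 after scaling. Of 6 tested kinases and phosphatases of the complex, 1 was called higher and 4 lower as deposited, and 1 higher and 2 lower after scaling. Among the kinases, which switch the complex off, PDK1 fell (6.11 ± 0.19 FPKM in the KDM4B-labelled libraries and 11.5 ± 0.56 FPKM in the vector controls; log2 fold change -0.81 as deposited and -0.59 after scaling; limma, adjusted p = 7.23e-08 as deposited). PDK2 fell as well (8.68 ± 0.29 FPKM in the KDM4B-labelled libraries and 13.3 ± 0.51 FPKM in the vector controls; -0.56 as deposited and -0.34 after scaling; limma, adjusted p = 8.84e-07 as deposited). PDK3 rose (9.36 ± 0.91 FPKM in the KDM4B-labelled libraries and 5.74 ± 0.11 FPKM in the vector controls; 0.62 as deposited and 0.83 after scaling; limma, adjusted p = 3.86e-06 as deposited). PDK4 was at or below 0.18 FPKM in every library.

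Of 14 other citrate cycle genes, 3 were called higher and 4 lower as deposited, and 11 higher and 2 lower after scaling. IDH3G, a subunit of the NAD-dependent isocitrate dehydrogenase, rose by 0.27, SDHA, the flavoprotein of succinate dehydrogenase, by 0.16, and FH, fumarase, by 0.15 as deposited (limma, adjusted p = 5.06e-05, 0.00273 and 0.00208), and by 0.51, 0.40 and 0.40 after scaling. SUCLG2, the GTP-specific subunit of succinyl-CoA ligase, fell by 0.43 as deposited (limma, adjusted p = 3.38e-06) and by 0.19 after scaling. OGDHL, a relative of OGDH, fell by 0.44 as deposited and by 0.27 after scaling, at only 1.81 FPKM in the KDM4B-labelled libraries and 2.81 FPKM in the vector controls (limma, adjusted p = 0.000381 as deposited).

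Of 6 tested cytosolic counterparts, 0 were called higher and 4 lower as deposited, and 2 higher and 3 lower after scaling. IDH1 measured 160, 179 and 159 FPKM in the KDM4B-labelled libraries, against 286, 261 and 272 FPKM in the vector controls. IDH1 thus fell (log2 fold change -0.71; limma, adjusted p = 2.05e-07; -0.47 after scaling) where IDH2 had log2 fold changes of 0.00 as deposited and 0.24 after scaling. ACLY, which splits citrate to acetyl-CoA for lipid synthesis, fell by 0.44, and ME1, the cytosolic malic enzyme, by 0.65 as deposited (limma, adjusted p = 7.45e-07 and 2.33e-06), and by 0.19 and 0.42 after scaling. MDH1 averaged 74.9 ± 1.01 FPKM in the KDM4B-labelled libraries and 70.9 ± 1.11 FPKM in the vector controls (SD, n = 3 each). Its log2 fold change of 0.08 was not called as deposited (limma, adjusted p = 0.0572), but it was called higher at 0.32 after scaling (limma, adjusted p = 1.11e-05) and at 0.36 in the event reads (edgeR, adjusted p = 1.04e-05). SLC25A1, the citrate carrier, averaged 66.3 ± 4.92 FPKM in the KDM4B-labelled libraries and 65.3 ± 2.07 FPKM in the vector controls (SD, n = 3 each). Its log2 fold change of 0.02 was not called as deposited (limma, adjusted p = 0.731), but it was called higher at 0.26 after scaling (limma, adjusted p = 0.000525) and at 0.27 in the event reads (edgeR, adjusted p = 0.00053). Of 10 tested carriers, 6 were called lower and 0 higher as deposited, and 2 lower and 4 higher after scaling; SLC25A22, a glutamate carrier, and SLC25A4, an ADP/ATP carrier, fell on both scales, by 0.40 and 0.47 as deposited (limma, adjusted p = 0.000132 and 6.88e-06) and by 0.17 and 0.25 after scaling.

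The 2 genes past a 2-fold fall as deposited handle alanine and lactate. GPT2, the mitochondrial alanine transaminase that makes or uses pyruvate, measured 37.4, 37.8 and 36.9 FPKM in the KDM4B-labelled libraries, against 84.3, 74.6 and 72.3 FPKM in the vector controls (log2 fold change -1.02 as deposited and -0.78 after scaling; limma, adjusted p = 1.39e-08 as deposited). SLC16A1, a lactate and pyruvate transporter of the plasma membrane, measured 26.1, 26.0 and 25.5 FPKM in the KDM4B-labelled libraries, against 55.0, 52.1 and 54.2 FPKM in the vector controls (log2 fold change -1.03 as deposited and -0.79 after scaling; limma, adjusted p = 1.17e-09 as deposited). In both genes the groups were far apart. PKM, pyruvate kinase, rose by 0.41 and LDHA, a lactate dehydrogenase subunit, by 0.31 as deposited (limma, adjusted p = 4.35e-07 and 0.000237), and by 0.65 and 0.55 after scaling. SLC16A3, another lactate transporter, rose by 0.42 as deposited and by 0.57 after scaling, at 2.20 FPKM in the KDM4B-labelled libraries and 1.38 FPKM in the vector controls (limma, adjusted p = 0.0014 as deposited). Of the 9 tested genes of this list, 5 were called higher and 2 lower as deposited, and 6 higher and 2 lower after scaling. PKM, LDHA and GLUD1 have near-identical copies elsewhere in the genome, so their values are uncertain. Other genes named here may share this limit.

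Of 5 tested genes of glutamate entry and transamination, 3 were called lower and 0 higher as deposited, and 2 lower and 2 higher after scaling. GLUD1, glutamate dehydrogenase, fell by 0.73 and GOT1, the cytosolic aspartate transaminase, by 0.48 as deposited (limma, adjusted p = 5.18e-08 and 1.17e-06), and by 0.49 and 0.24 after scaling. Of 4 tested genes of acetyl-CoA and lipoylation, 0 were called higher and 2 lower as deposited, and 1 higher and 2 lower after scaling. LIAS and LIPT1, which make or attach the lipoic acid that pyruvate and 2-oxoglutarate dehydrogenase need, fell by 0.46 and 0.59 as deposited (limma, adjusted p = 8.05e-05 and 1.97e-05), and by 0.24 and 0.41 after scaling. Neither was called in the event reads, where the log2 fold changes were -0.14 for LIAS and 0.22 for LIPT1 (edgeR, adjusted p = 0.527 and 0.698). The 2 tested genes that handle 2-hydroxyglutarate were not called as deposited and were called higher after scaling.

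**Figure D5:**
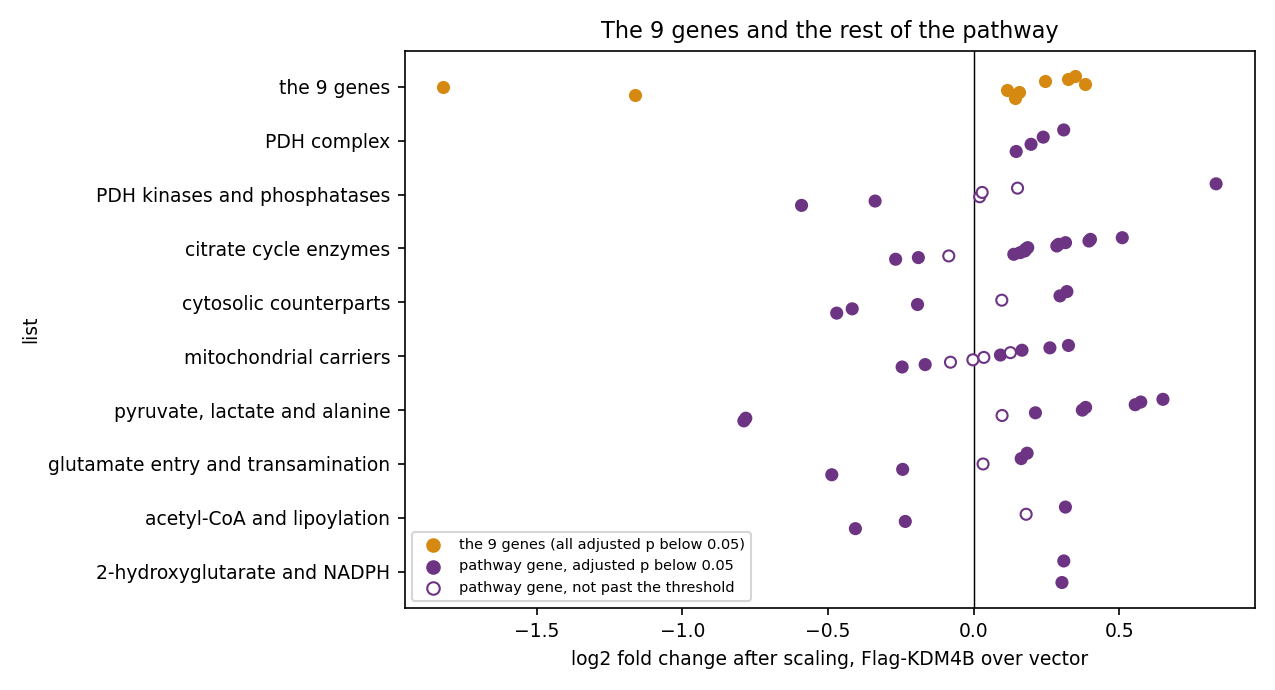
Scaled log2 fold change, KDM4B-labelled libraries over vector controls, of the 9 genes (orange) and of the 60 tested pathway genes by list (purple, filled where the limma adjusted p is below 0.05). PCK2 at -1.82 and MPC2 at -1.16 lie below every gene of the other lists, of which SLC16A1 at -0.79 and GPT2 at -0.78 are the lowest.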

How the data were processed

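RNA from 6 libraries was analysed, 3 labelled KDM4B and 3 vector controls. The authors deposited FPKM per gene with 2 decimals, per the file headers, and whole-number read counts per splicing event that were not normalized. The submitters' processing notes list HISAT, StringTie, Cufflinks, GRCh38 and hg38 without saying what each was used for; annotation and splicing caller are named in no source used here. Event positions lay outside the RefSeq GRCh38 positions of their genes, so exons are given by length only. FPKM hold no counts, so gene-level depth is unknown. Summed SE counts, in which events share reads, lay between 14212396 and 14787321 for the KDM4B-labelled libraries and between 16451082 and 17021204 for the vector controls. Intervals of read counts reflect counting and the scatter of these libraries alone.

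Genes averaging 1 FPKM or more were tested with limma 3.58.1 (R 4.3.3) and a mean-variance trend on log2(FPKM + 1), two-sided, Benjamini-Hochberg adjusted at 0.05; this scale understates changes of low genes. For scaled values the FPKM of a library were divided by its median of ratios to the geometric mean (0.904, 0.942 and 0.914 in the KDM4B-labelled libraries, 1.09 in each vector control). For event reads and splice forms edgeR 4.0.16 was used (glmQLFit, glmQLFTest), with DESeq2 1.42.0 as an alternative. Counts of both splice forms could be recovered where 2 SE events and 1 mutually exclusive exon event share exons (3247 sets, 2 left out), so the planned test of both forms was possible only there; the alternative 5′ splice site was tested against the SE reads of its gene. Of 19571 gene IDs, 19400 matched the RefSeq gene table, used for names and neighbours. No library was a copy of another: chi-square over degrees of freedom ran from 2.42 to 2.96 for replicates and from 28.5 to 33.8 across groups, over 8555 events. The limma test and the edgeR tests of event reads and of mutually exclusive exon pairs were tried on simulated data. The exact permutation test, DESeq2 and the test of the alternative 5′ splice site were not.

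The 9 genes, the lists and the rule for named genes were chosen with earlier results of these data known. That rule names the 9 genes, KDM4B, pathway genes called in the same direction on both scales, up to 3 per list and direction by lowest p, a set of others whatever they showed, and every tested splice event of the 9. Results were recomputed with a pseudocount of 0.1, other filters and scalings, no trend, a replicate block and every library omitted once. Of the 8 ratios within a library, 1 is not reported here, nor are the values of 1 named gene.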

Additional observations from a re-analysis of the deposited data

How the results depend on the processing

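PCK2, MPC2 and CS kept their direction and their call under every alternative tried, with PCK2 between -2.13 and -2.02, MPC2 between -1.43 and -1.37 and CS between 0.10 and 0.17 when 1 library was left out. Under median-of-ratios scaling and under scaling to the FPKM sum without ribosomal RNA, the log2 fold changes were 0.14 and 0.13 for MPC1, 0.16 and 0.15 for PDHA1, 0.11 and 0.10 for PC and 0.20 and 0.19 for PDHB, all of opposite sign to the values as deposited, and 0.24 and 0.23 for IDH2 and 0.32 and 0.31 for OGDH, which then passed the threshold. The same scalings called 4136 and 3995 of all genes higher and 4114 and 4244 lower, 7 and 7 of the 9 genes higher, and 33 and 33 pathway genes higher and 15 and 15 lower. The sizes of these shifts follow the library factors by construction. Without a variance trend MDH2 (0.10) was not called, which left 1 of the 9 called higher, and the event reads called 4 higher.

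Leaving out 1 library gave -0.13 to -0.059 for MPC1, -0.14 to -0.10 for PC, -0.039 to 0.025 for IDH2, 0.046 to 0.11 for OGDH, 0.076 to 0.13 for MDH2, -0.063 to -0.020 for PDHB, 1 to 2 of the 9 genes called higher and -0.031 to 0.075 for SLC25A1. In the event reads it gave 0.12 to 0.28 for MPC1, 0.11 to 0.26 for PDHA1 and 0.071 to 0.31 for PC, of which MPC1 without vector replicate 2 and PDHA1 without KDM4B replicate 4 or vector replicate 2 were called. For the tested splice events it gave log2 odds ratios of 0.10 to 0.25 for the OGDH pair of 91 and 103 bases. They were -0.0076 to 0.21 for the OGDH pair of 192 and 103 bases and -0.066 to 0.0076 for that of 180 and 129 bases. For the MPC2 splice site event they were -0.66 to 0.41. With event reads the log2 difference was -0.033 for OGDH to IDH2 and 0.050 for PDHA1 to PDHB, against 0.08 and -0.04 from FPKM. Replicate numbers 1 and 2 are shared by both groups, and the deviations of same-numbered libraries correlated at r of -0.02 and 0.13 over 12148 genes, so they were not treated as pairs. In a fit with the numbers as a replicate block, KDM4B replicate 4 and vector replicate 3 had no same-numbered partner. The fold changes of the block fit therefore rest on replicates 1 and 2 of each group. PC stood there at -0.11 (limma, adjusted p = 0.116) and IDH2 at -0.0045. After scaling, MPC1 and PC were 0.10 and 0.11 in the block fit and no longer called, and the PC event reads were called at 0.39. Apart from the block fit, the cause of these changes was not tested. The low counts of the MPC1 exon of 216 bases limit its precision.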

Other observations

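PKM carries a pair of mutually exclusive exons of 167 bases each, whose choice gives the M1 and M2 forms of pyruvate kinase, the enzyme that makes the pyruvate the 9 genes handle. The first exon of the pair in the file, whose listed transcripts include the M2 form, took 98.9%, 98.9% and 99.0% of the reads of the pair in the KDM4B-labelled libraries, against 98.6%, 98.3% and 98.7% in the vector controls. The groups did not overlap, and the log2 odds ratio of 0.48 missed the threshold (edgeR, adjusted p = 0.0582). The event was picked after its values were seen.

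Among 6532 genes averaging at least 10 FPKM, the profiles over the 6 libraries nearest to that of PCK2, by Euclidean distance of scaled log2 values from the vector mean, were those of SEPP1 (0.19), LPAR3 (0.24) and CLGN (0.27). The nearest to MPC2 were ARSG (0.082), SMIM14 (0.082) and RCN1 (0.091). SEPP1 averaged 12.7 FPKM in the KDM4B-labelled libraries and 57.5 FPKM in the vector controls, and SMIM14 averaged 17.0 FPKM in the KDM4B-labelled libraries and 46.5 FPKM in the vector controls.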
